A study of Mus musculus with 7 samples.

Results

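In the RNA of the cerebral cortex of 7 mice, 8 genes that mark the medium spiny neurons of the striatum were followed from animal to animal. They were chosen by gene symbol (*Adora2a*, *Rgs9*, *Ppp1r1b*, *Pde10a*, *Drd2*, *Penk*, *Tac1* and *Rarb*), each symbol matched 1 of the 24346 rows of the deposited table, and all 8 were above 0 in every animal. The study used male littermates on a C57BL/6J background at postnatal day 100. The CrT-/y animals (n = 4, replicates 0 to 3) lack exons 5 to 7 of *Slc6a8*, the creatine transporter gene on the X chromosome, through a constitutive deletion, and the CrT+/y animals (n = 3, replicates 1 to 3) carry the intact gene. Each animal gave 1 library of dissected cortex, the labels name no treatment, and levels are given as FPKM, a fragment count divided by exon length and by the mapped reads of the library, so that genes can be compared with each other.

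The striatum lies beneath the cortex, and nearly all of its neurons are medium spiny neurons, GABAergic projection cells that receive cortical glutamate and midbrain dopamine. They form a pair of populations. Cells of the direct pathway carry the D1 dopamine receptor and make substance P and dynorphin, and cells of the indirect pathway carry the D2 dopamine receptor and adenosine receptor 2a and make enkephalin. In both, dopamine acts through cAMP and protein kinase A, so that the genes listed here cover receptors, transmitters and the enzymes and regulators in between. Some of these genes, among them *Penk*, *Tac1* and *Ppp1r1b*, are also transcribed by cortical neurons at lower levels, whereas *Adora2a*, *Drd2* and *Rgs9* are strongly enriched in the striatum.

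The 8 transcripts moved together between animals, and their levels differed widely among animals of the same genotype. Every one of the 8 was lowest in CrT+/y replicate 1. The highest 3 animals were for each gene CrT-/y replicate 0, CrT-/y replicate 1 and CrT+/y replicate 2, with the maximum in CrT-/y replicate 1 for 6 genes and in CrT+/y replicate 2 for *Drd2* and *Penk*. Between the lowest and the highest animal the level differed by 3.33-fold (*Pde10a*) to 21.8-fold (*Drd2*). A range of more than 3-fold was found in 8 of 8 of these genes and in 166 of the 12988 genes tested (1.28%). The 8 were chosen with earlier results of these data known, so this contrast describes them and is not an independent test. In tissue RNA, a smaller number of cells of a type and less RNA per cell cannot be told apart.

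**Figure D1:**
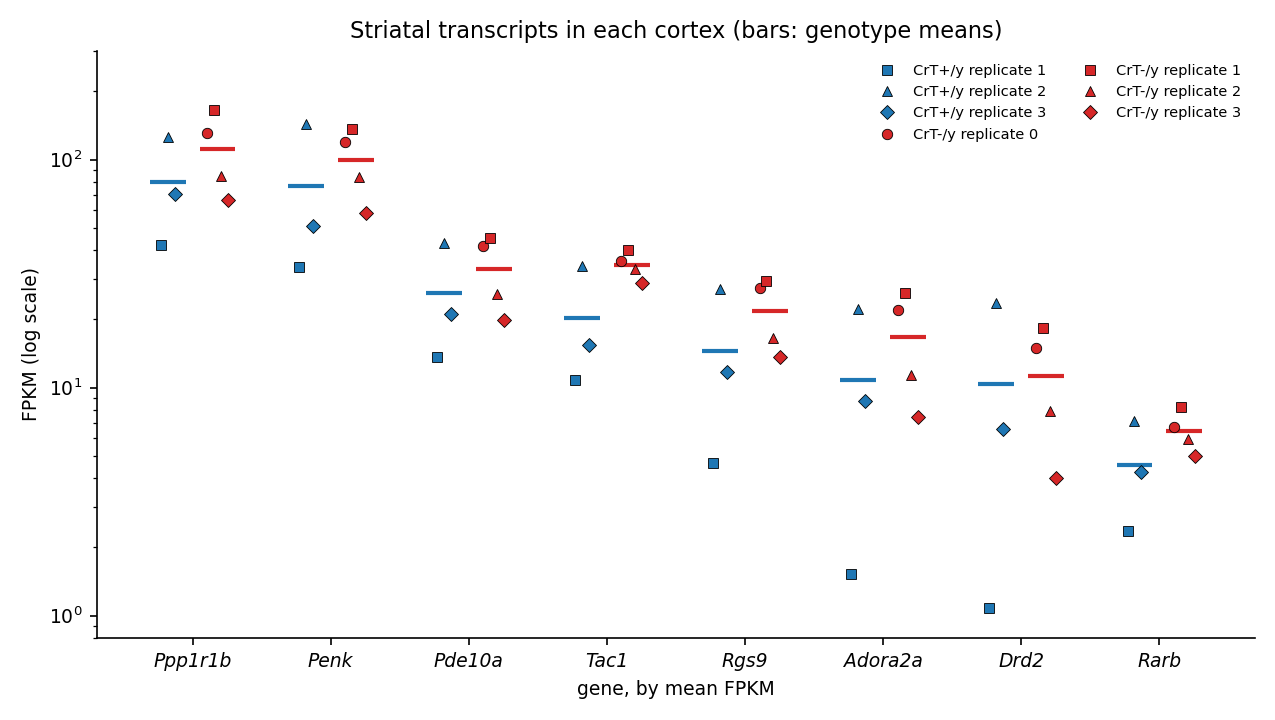
FPKM of the 8 striatal transcripts (log axis) in each animal, with genes ordered by their mean over the 7 animals. Each symbol is 1 animal, blue for CrT+/y and red for CrT-/y, and bars are genotype means. CrT+/y replicate 1 is the lowest point of every gene (1.08 FPKM for *Drd2*), CrT+/y replicate 2 lies among the CrT-/y animals for 6 genes and above them for *Drd2* and *Penk*, and the genotypes overlap for all 8 genes.

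Targeting of the transporter was visible in all animals. *Slc6a8* (chrX:73673150-73682502, plus strand, GRCm38) was at 32.3, 29.6 and 28.0 FPKM in CrT+/y replicates 1, 2 and 3 and at 12.4, 14.9, 14.7 and 15.7 FPKM in CrT-/y replicates 0, 1, 2 and 3, and its log2 fold change was -1.05 (standard error, SE, 0.087, limma adjusted p = 0.002). Cortical identity was equally clear, since the 9 genes listed for cortical excitatory neurons summed to 776 to 944 FPKM in CrT+/y and 782 to 877 FPKM in CrT-/y animals. Most of each sum was *Slc17a7*, at 542 to 670 FPKM in CrT+/y and 571 to 647 FPKM in CrT-/y animals. The number of genes above 0 FPKM was 17207 to 17821. Sequencing depth cannot be read from FPKM directly, but the steps of 1402 low genes put the depth of the other libraries at 1.04 to 1.44 times that of CrT+/y replicate 1. The 3 animals high in striatal transcripts lay at 1.04 to 1.15 times, and the part of depth in the low values of CrT+/y replicate 1 was not tested.

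Genotypes were compared with limma on log2(FPKM + 0.1) over the 12988 genes whose mean reached 1 FPKM, among them all 8 striatal transcripts. Because of the added 0.1, fold changes of low genes are understated. At an adjusted p-value under 0.1, 10.1% of the tested genes were called in either direction and 2.9% were called higher in CrT-/y. None of the 8 was called by limma (0 of 8), and 1 of them, *Tac1*, had an unadjusted p-value under 0.05, against 25.0% of the tested genes. All 8 had a log2 fold change above 0, as 41.8% of the tested genes did, with a median of 0.69 against -0.03 over all tested genes. Because the 8 moved together between animals and were chosen with earlier results known, these are not 8 independent results. In none of the 8 did the 4 CrT-/y animals lie apart from the 3 CrT+/y animals, while 21.6% of the tested genes had groups that did not overlap. Upper quartile scaling, quantile normalization and median centring left all 8 above 0. The same scalings changed the split of the calls over all genes, from 377 higher and 941 lower to 741 and 463, 528 and 555, and 490 and 527.

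The surface receptors of the list belong to the indirect pathway. *Adora2a* (chr10:75316877-75334784, plus strand) encodes adenosine receptor 2a, which raises cAMP. It was at 1.52, 22.1 and 8.73 FPKM in CrT+/y replicates 1, 2 and 3 and at 21.9, 26.0, 11.3 and 7.40 FPKM in CrT-/y replicates 0, 1, 2 and 3. The lowest CrT-/y animal thus lay under 2 of the CrT+/y animals. The mean was 16.7 ± 8.75 FPKM (SD, n = 4) among CrT-/y animals and 10.8 ± 10.4 FPKM (SD, n = 3) among CrT+/y animals, and the log2 fold change of 1.13 (SE 0.77, 95% interval -0.61 to 2.86) did not pass the test (limma adjusted p = 0.391). *Drd2* (chr9:49340627-49408177, plus strand) encodes the D2 dopamine receptor, which lowers cAMP. Its level was 1.08, 23.5 and 6.56 FPKM in CrT+/y replicates 1, 2 and 3 and 14.9, 18.3, 7.87 and 4.00 FPKM in CrT-/y replicates 0, 1, 2 and 3. Both the lowest and the highest value of *Drd2* came from CrT+/y animals. Means were 11.3 ± 6.49 FPKM (SD, n = 4) and 10.4 ± 11.7 FPKM (SD, n = 3), with a log2 fold change of 0.77 (SE 0.88, 95% interval -1.21 to 2.76, limma adjusted p = 0.618).

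The neuropeptide precursors stood at higher levels than these receptors. *Penk* (chr4:4133531-4138819, minus strand), the precursor of the enkephalins, reached 33.9, 144 and 51.1 FPKM in CrT+/y replicates 1, 2 and 3, and 119.9, 136, 83.7 and 58.1 FPKM in CrT-/y replicates 0, 1, 2 and 3. As with *Drd2*, all 4 CrT-/y animals lay inside the range of the CrT+/y animals. The log2 fold change of *Penk* was 0.58 (SE 0.45, 95% interval -0.43 to 1.60, limma adjusted p = 0.452), from 99.3 ± 35.0 FPKM (SD, n = 4) among CrT-/y animals and 76.3 ± 59.1 FPKM (SD, n = 3) among CrT+/y animals.

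*Tac1* (chr6:7554879-7565834, plus strand), the precursor of substance P and neurokinin A, was the transcript with the lowest p-value of the 8. It was at 10.8, 34.2 and 15.3 FPKM in CrT+/y replicates 1, 2 and 3 and at 35.9, 40.1, 33.0 and 28.7 FPKM in CrT-/y replicates 0, 1, 2 and 3. CrT+/y replicates 1 and 3 lay below all CrT-/y animals, and CrT+/y replicate 2 lay above 2 of them. Means were 34.4 ± 4.79 FPKM (SD, n = 4) among CrT-/y animals and 20.1 ± 12.4 FPKM (SD, n = 3) among CrT+/y animals. The log2 fold change was 0.93 (SE 0.32, 95% interval 0.22 to 1.65) with an unadjusted p of 0.016 in limma's fit across all genes and an adjusted p of 0.119. It passed the threshold when CrT+/y replicate 2 was left out (log2 fold change 1.40, limma adjusted p = 0.020) and not when CrT+/y replicate 1 was left out (0.57, limma adjusted p = 0.311). *Tac1* had the smallest spread among CrT-/y animals, where the highest value was 1.40 times the lowest, against 3.52 times for *Adora2a* and 4.57 times for *Drd2*.

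The upstream sequence of *Tac1* is shown because its transcription is known to respond to cAMP. The receptors above belong to the indirect pathway, whereas *Tac1* is a gene of the direct pathway. RefSeq's table for GRCm38.p6, with 250 bases before each start, held 5 of the 8 genes (*Drd2*, *Pde10a*, *Rarb*, *Rgs9* and *Tac1*) with 6 starts in all, and it had no entry for *Adora2a*, *Penk* and *Ppp1r1b*. GENCODE begins *Tac1* at chr6:7554879, directly after the bases shown and upstream of the RefSeq start. The distances given here hold for the RefSeq start only, and the letters lie closer to the GENCODE start. The 68 bases at chr6:7554811-7554878 (plus strand), which begin 250 bases before the RefSeq start, hold in capitals the letters TGCGTCA, a variant of the cAMP response element, from -199 to -193.
Tac1: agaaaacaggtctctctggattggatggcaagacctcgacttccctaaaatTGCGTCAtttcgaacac
Searched on both strands, TGCGTCA was found in 574 of 32851 promoters of the same length (1.75%) and in 1 of the 6 of the listed genes. The full palindrome TGACGTCA was found in 508 of 32851 (1.55%) and in 0 of the 6. The letters to search were chosen after the sequences had been seen, and the match is a description of the letters in this window.

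Downstream of the receptors, *Rgs9* (chr11:109225355-109298129, minus strand) encodes a regulator that speeds the shut-off of G proteins at dopamine receptors. Its values were 4.68, 27.0 and 11.8 FPKM in CrT+/y replicates 1, 2 and 3 and 27.5, 29.3, 16.5 and 13.7 FPKM in CrT-/y replicates 0, 1, 2 and 3. The order of the animals was close to that of *Adora2a*, and the genotypes overlapped. From 21.7 ± 7.82 FPKM (SD, n = 4) among CrT-/y animals and 14.5 ± 11.4 FPKM (SD, n = 3) among CrT+/y animals the log2 fold change was 0.85 (SE 0.50, limma adjusted p = 0.324).

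*Ppp1r1b* (chr11:98348404-98357796, plus strand), which encodes DARPP-32, the protein kinase A substrate that inhibits protein phosphatase 1, was the most abundant of the 8. It was at 42.1, 126 and 70.9 FPKM in CrT+/y replicates 1, 2 and 3 and at 131, 164, 84.4 and 66.6 FPKM in CrT-/y replicates 0, 1, 2 and 3. CrT-/y replicate 3 was below CrT+/y replicate 3, and CrT+/y replicate 2 was above 2 of the CrT-/y animals. The log2 fold change was 0.54 (SE 0.38, limma adjusted p = 0.409) between means of 111.5 ± 44.4 FPKM (SD, n = 4) and 79.7 ± 42.6 FPKM (SD, n = 3).

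*Pde10a* (chr17:8525372-8986648, plus strand) encodes the phosphodiesterase that degrades cAMP and cGMP in medium spiny neurons. It was at 13.6, 43.2 and 21.1 FPKM in CrT+/y replicates 1, 2 and 3 and at 42.0, 45.3, 25.7 and 19.8 FPKM in CrT-/y replicates 0, 1, 2 and 3. This transcript showed the narrowest range of the 8, relative to its level, and the smallest log2 fold change. Its log2 fold change was 0.44 (SE 0.39, limma adjusted p = 0.518), with means of 33.2 ± 12.4 FPKM (SD, n = 4) and 25.9 ± 15.4 FPKM (SD, n = 3).

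*Rarb* (chr14:16430839-16819156, minus strand) encodes retinoic acid receptor beta, a nuclear receptor needed for the development of striatal neurons, and was the least abundant of the 8. Its level was 2.35, 7.12 and 4.26 FPKM in CrT+/y replicates 1, 2 and 3 and 6.70, 8.21, 5.98 and 5.02 FPKM in CrT-/y replicates 0, 1, 2 and 3. As with *Tac1*, CrT+/y replicates 1 and 3 lay below all CrT-/y animals and CrT+/y replicate 2 lay among them. Means were 6.48 ± 1.34 FPKM (SD, n = 4) among CrT-/y animals and 4.57 ± 2.40 FPKM (SD, n = 3) among CrT+/y animals, and the log2 fold change was 0.61 (SE 0.31, 95% interval -0.09 to 1.31, limma adjusted p = 0.255). Without CrT+/y replicate 2 it was 0.99 (limma adjusted p = 0.089).

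*Rarb* is known to be induced by its own ligand through a direct repeat near 1 of its starts, and the 30 bases of RefSeq that hold the repeat are shown for that reason. They lie at chr14:16575506-16575535 (minus strand, GRCm38.p6), within the span that GENCODE gives to *Rarb*. The capitals run from -52 to -37 of the RefSeq start and overlap an exon in GENCODE, whose gene and strand were not looked up.
Rarb: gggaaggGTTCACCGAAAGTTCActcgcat
The searched pattern was GTTCANNNNNNGTTCA on both strands, found in 22 of 32851 promoters (0.0670%) and in 1 of the 6 of the listed genes. As with *Tac1*, the pattern was chosen after the sequences had been seen and nothing follows from it for binding.

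Levels over all 7 animals followed the order *Ppp1r1b* (97.9 FPKM), *Penk* (89.4), *Pde10a* (30.1), *Tac1* (28.3), *Rgs9* (18.6), *Adora2a* (14.1), *Drd2* (10.9) and *Rarb* (5.66). The ranges of all 7 neighbouring pairs overlapped across animals. Both genes of a pair were measured in the same libraries, so this overlap does not compare them within an animal. Within single animals the order was steadier. *Penk* stood above *Pde10a*, *Tac1* above *Rgs9*, and *Rgs9* above *Adora2a* in 7 of 7 animals, *Ppp1r1b* above *Penk* and *Adora2a* above *Drd2* in 6 of 7, and *Pde10a* above *Tac1* and *Drd2* above *Rarb* in 5 of 7.

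**Figure D2:**
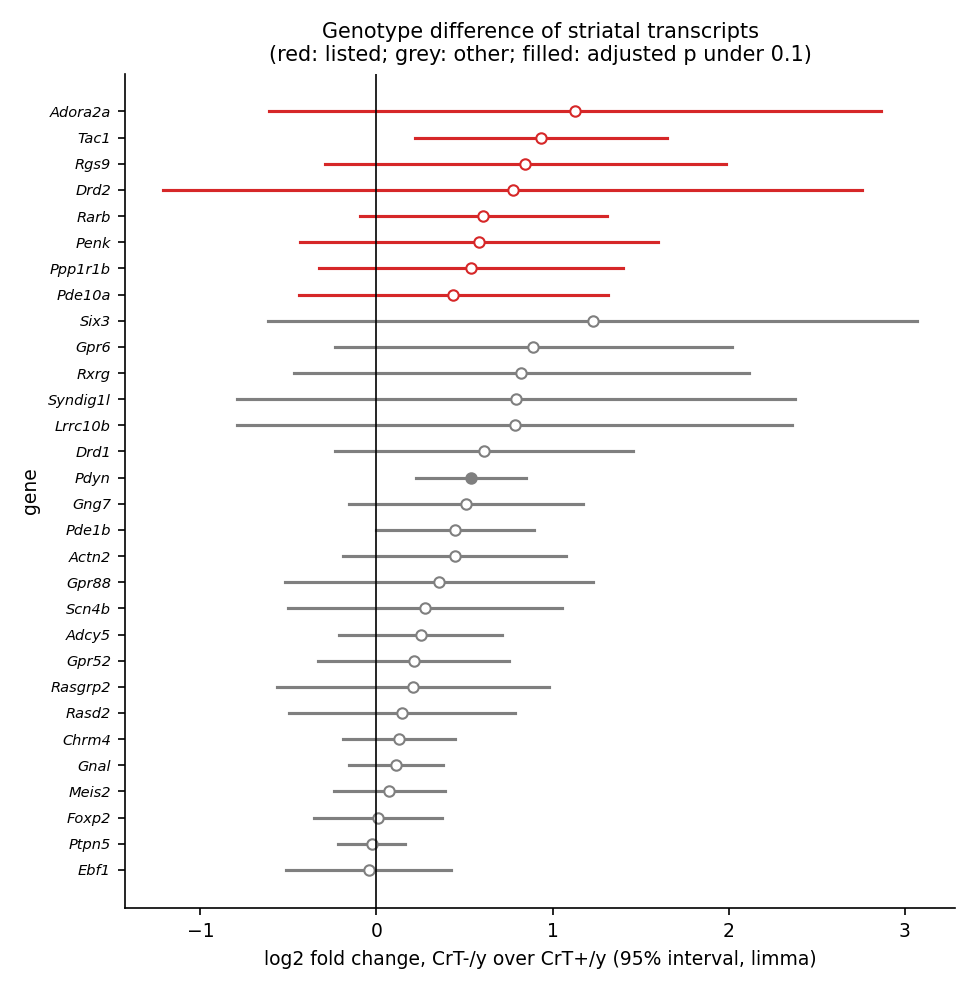
Log2 fold change of CrT-/y over CrT+/y with its 95% interval from limma, for the 8 listed striatal transcripts (red) and 22 other genes of medium spiny neurons (grey). Filled circles have an adjusted p-value under 0.1. The 8 lie between 0.44 and 1.13 and only the interval of *Tac1* leaves out 0 among them, whereas the filled circle is *Pdyn*.

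The spread within a genotype set the limit of these comparisons. On the log2 scale, the SD between animals of one genotype was 1.57 for *Drd2*, 1.37 for *Adora2a*, 0.90 for *Rgs9*, 0.80 for *Penk*, 0.69 for *Pde10a*, 0.68 for *Ppp1r1b*, 0.56 for *Tac1* and 0.54 for *Rarb*. Each of these lay between the 98.8 and 99.8 percentiles of all tested genes, whose median SD was 0.11 against 0.75 for the 8. As with the ranges, the 8 were chosen with earlier results known, so these percentiles are a description. Genotype accounted for 7.71% of the variance of *Drd2* between animals and for 48.9% of that of *Tac1*, with the other 6 genes in between.

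**Figure D3:**
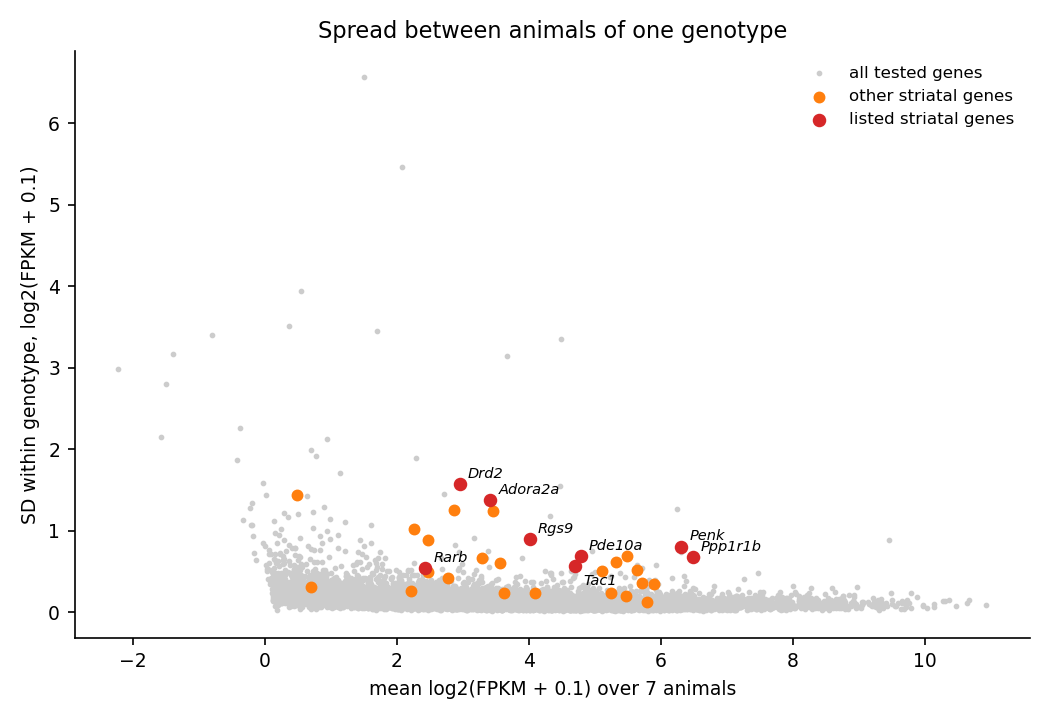
SD between animals of one genotype, log2(FPKM + 0.1), against the mean log2 level over 7 animals. Grey points are the 12988 tested genes, orange points are 22 other genes of medium spiny neurons and red points are the 8 listed transcripts. The red points lie between 0.54 (*Rarb*) and 1.57 (*Drd2*), above the median of 0.11.

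Animals at both ends of the CrT+/y group decided the size of the difference. Without CrT+/y replicate 1, the median log2 fold change of the 8 was 0.14, and the values were 0.09 for *Adora2a*, 0.21 for *Rgs9*, 0.15 for *Ppp1r1b*, 0.06 for *Pde10a*, -0.36 for *Drd2*, 0.14 for *Penk*, 0.57 for *Tac1* and 0.21 for *Rarb*, none of them called by limma. Without CrT+/y replicate 2, the median was 1.29, from 0.88 for *Pde10a* to 1.98 for *Adora2a*, and *Tac1* and *Rarb* were called. Leaving out any 1 of the other 5 animals gave medians of 0.48 to 0.92.

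Between animals, the 8 transcripts were closely correlated with each other. Over the 28 pairs of genes, Pearson's r of the log2 values was 0.83 to 0.99 with a median of 0.96 (n = 7 animals). These points share the library of each animal, and 1 low animal, CrT+/y replicate 1, carries much of the range. Against the mean standardized level of the other 7 genes, r was highest for *Rgs9* (0.99, Spearman's rho 0.96) and lowest for *Tac1* (0.90, rho 0.93). Leaving out the 2 animals farthest from the median, CrT+/y replicate 1 and CrT-/y replicate 1, gave 0.99 for *Rgs9* and 0.69 for *Tac1* (n = 5 animals), and 0.90 to 0.99 for the other 6 genes.

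On the scale of FPKM, the transcripts differed in their level where *Adora2a* was low. A straight line through the 7 animals, taken to 0 FPKM of *Adora2a*, met 31.8 FPKM for *Ppp1r1b*, 23.8 FPKM for *Penk*, 13.8 FPKM for *Tac1*, 10.1 FPKM for *Pde10a*, 4.25 FPKM for *Rgs9* and 2.79 FPKM for *Rarb*. For *Rarb* and *Tac1* this was 49.4% and 48.6% of the mean level, and for *Rgs9* 22.8%. The line for *Drd2* met -0.87 FPKM. This was the only negative value among the lines, but r for *Drd2* was 0.93 and no interval was computed. In CrT+/y replicate 1, where *Adora2a* was lowest (1.52 FPKM), *Drd2* was at 1.08 FPKM. *Tac1* was the transcript farthest from a straight line (r = 0.86 across the 7 animals), since CrT-/y replicates 2 and 3 lay above it and CrT+/y replicates 1 and 3 below it.

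**Figure D4:**
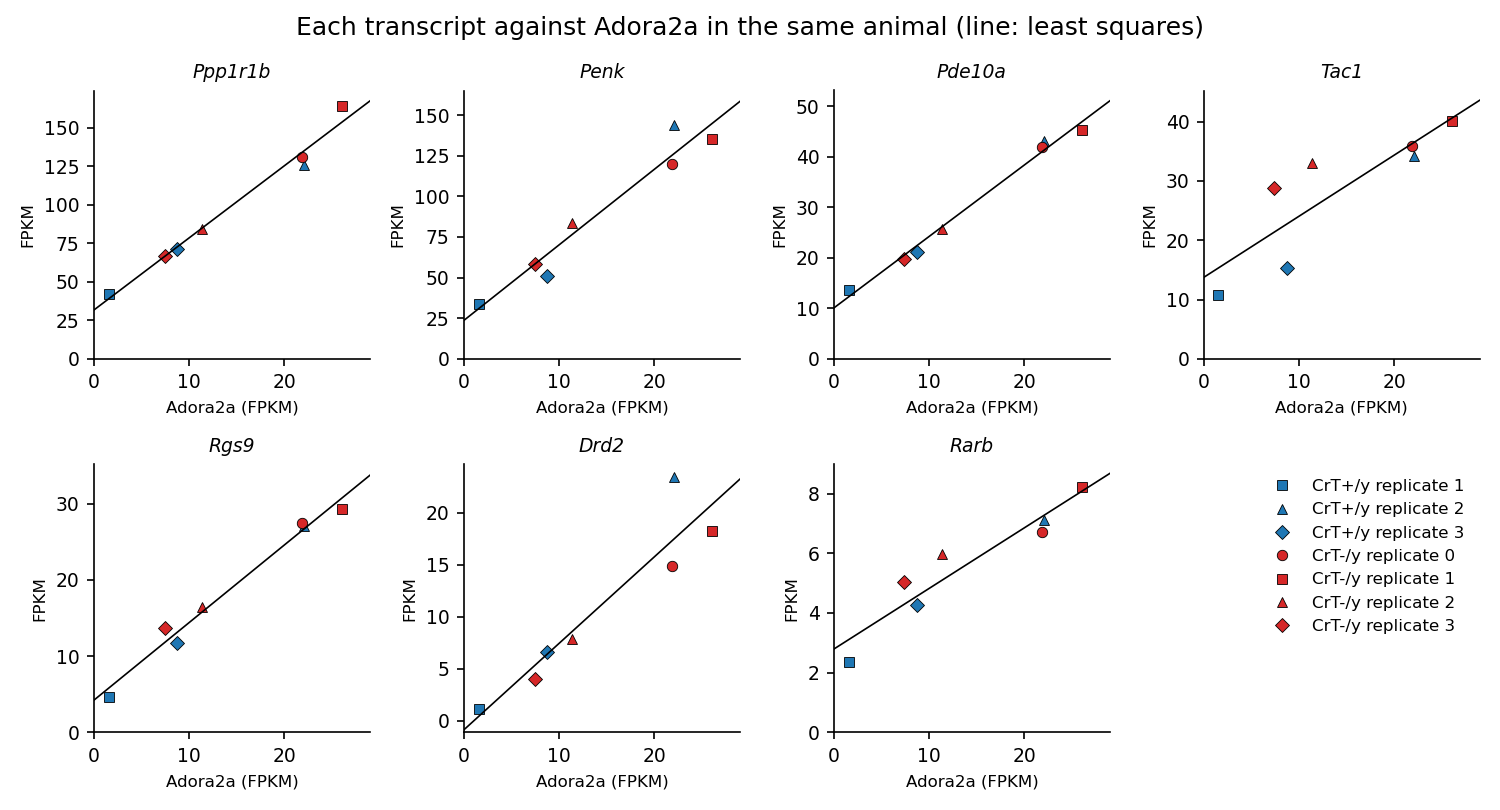
FPKM of 7 transcripts against the FPKM of *Adora2a* in the same animal, with the least squares line over 7 animals. Each symbol is 1 animal, blue for CrT+/y and red for CrT-/y. The points of *Pde10a*, *Rgs9* and *Ppp1r1b* lie close to their lines (r = 0.99), while *Tac1* scatters more widely (r = 0.86) and crosses 0 FPKM of *Adora2a* at 13.8 FPKM.

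Ratios between transcripts were also taken within each animal. *Drd2* over *Drd1*, the D1 receptor of the direct pathway, was 0.26, 1.54 and 0.97 in CrT+/y replicates 1, 2 and 3 and 1.12, 1.15, 0.75 and 0.48 in CrT-/y replicates 0, 1, 2 and 3. This ratio did not remove the overall striatal level, since it was lowest in CrT+/y replicate 1 and highest in CrT+/y replicate 2. Taken to 0 FPKM of *Adora2a*, the line for *Drd1* met 3.98 FPKM, 37.5% of its mean, against -7.99% for *Drd2*. The ratios are therefore not read as a balance of the pathways. *Tac1* over *Drd1* was 2.56, 2.25 and 2.26 in CrT+/y and 2.70, 2.53, 3.17 and 3.44 in CrT-/y animals, in the same order. All but 1 of the CrT-/y values of *Tac1* over *Drd1* exceeded the highest CrT+/y value, and CrT-/y replicate 1 lay just under it. *Penk* over *Tac1* spanned 3.14 to 4.20 in CrT+/y and 2.02 to 3.38 in CrT-/y, and *Ppp1r1b* over *Pde10a* only 2.92 to 3.62 over all 7 animals. The genotypes overlapped in each of these 4 ratios, and no test was made of them.

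Other genes enriched in medium spiny neurons followed the same animals. Of 23 such genes, 22 were tested, 20 had a log2 fold change above 0, and the median was 0.32. Their summed level was 338, 666 and 466 FPKM in CrT+/y replicates 1, 2 and 3 and 647, 743, 489 and 450.1 FPKM in CrT-/y replicates 0, 1, 2 and 3. The correlation with the mean standardized level of the 8 transcripts exceeded 0.7 in 20 of the 22 and 0.9 in 12 of them (n = 7 animals), against 600 (4.62%) and 79 (0.609%) of the 12980 tested genes outside the 8. This group, too, was chosen with earlier results of these data known. When this group's level was added to genotype in limma's fit, a choice made after seeing the data, the median log2 fold change of the 8 was 0.18, *Tac1* was called (0.59, adjusted p = 0.091) and *Drd2* and *Pde10a* changed sign (-0.22 and -0.01).

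The 10 genes most like the 8 included 7 of this group. *Gng7*, a G protein gamma subunit of striatal receptor signalling, came first (r = 0.997, Spearman's rho 0.964, n = 7 animals), with 24.9, 65.5 and 41.7 FPKM in CrT+/y replicates 1, 2 and 3 and 67.0, 75.1, 52.6 and 42.9 FPKM in CrT-/y replicates 0, 1, 2 and 3. *Drd1* came next (r = 0.994), followed by the orphan receptor *Gpr6* (0.989), the substance P receptor *Tacr1* (0.988), the adenylyl cyclase *Adcy5* (0.987), *Tbc1d8* (0.986), *Ralgps2* (0.981), the retinoid X receptor *Rxrg* (0.981), *Lrrc10b* (0.976) and *Syndig1l* (0.976). Without the 2 animals named above, r of these 10 was still at least 0.909 (n = 5 animals). *Ptpn5* (r = 0.47), *Ebf1* (0.56) and *Pdyn* (0.76) were least like the 8 among the 22.

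**Figure D5:**
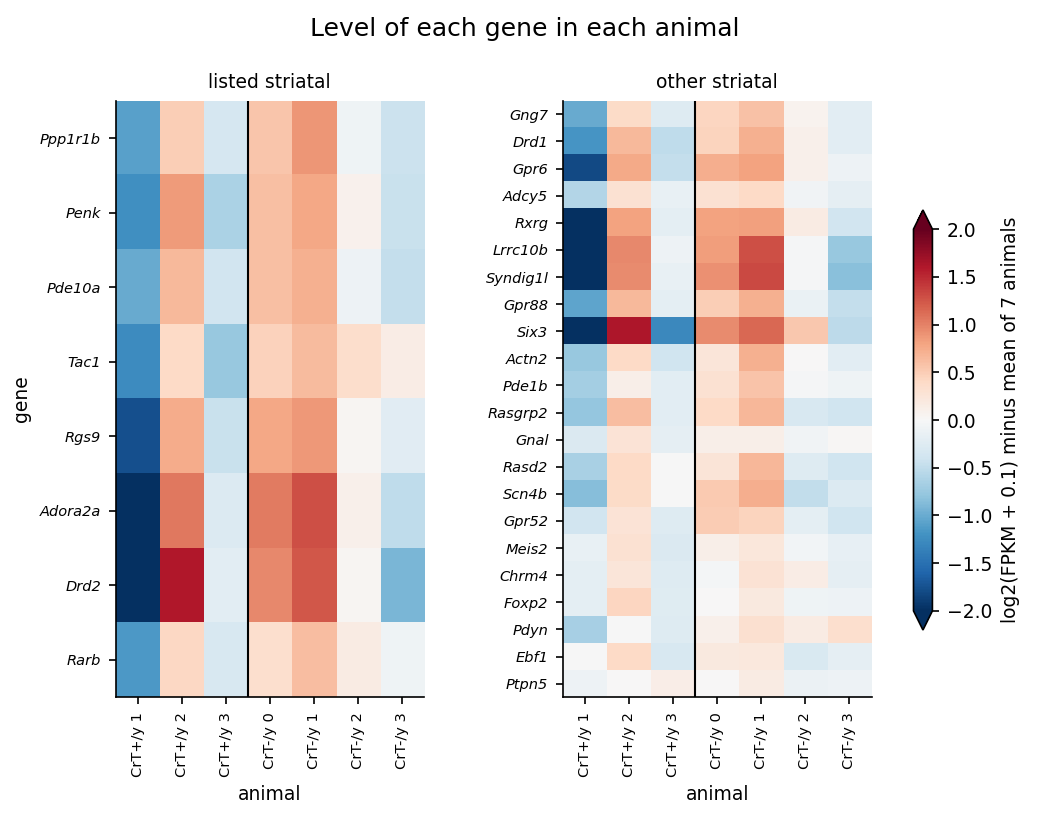
Level of each gene in each animal as log2(FPKM + 0.1) minus the mean of the 7 animals, red above and blue below, with colours held at 2 and -2. Panels show the 8 listed transcripts and 22 other genes of medium spiny neurons, and a black line separates the genotypes. CrT+/y replicate 1 is blue across most striatal genes and CrT+/y replicate 2, CrT-/y replicate 0 and CrT-/y replicate 1 are red, a pattern that is faint in *Ptpn5*.

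Genes were also grouped by pathway, in lists that overlap the sets above. *Adora2a*, *Drd2*, *Penk* and *Tac1* are among the 8. The other pathway genes, except *Sp9*, are among the other genes of medium spiny neurons, so the medians below largely restate the same genes. None of the 6 indirect pathway genes was called by limma, against 10.1% of all tested genes (median log2 fold change 0.68). Of these 6, *Sp9*, a transcription factor of these neurons, had an unadjusted p-value under 0.05, as 25.0% of all tested genes did (log2 fold change 0.58, standard error 0.24, limma adjusted p = 0.174). Of the 6 direct pathway genes, 5 were tested, with a median of 0.54. *Isl1*, a transcription factor of direct pathway neurons, had a mean under 1 FPKM and was listed at 0 FPKM in CrT+/y replicate 1. *Pdyn*, the precursor of the dynorphins, was the gene called in this list. It was at 7.69, 12.2 and 10.2 FPKM in CrT+/y replicates 1, 2 and 3 and at 13.0, 15.3, 13.7 and 15.3 FPKM in CrT-/y replicates 0, 1, 2 and 3, so that the genotypes did not overlap, as in 21.6% of all tested genes. *Pdyn* was higher in CrT-/y by 0.54 on the log2 scale (SE 0.14, limma adjusted p = 0.064), a call lost in 6 of 18 alternatives, with adjusted p-values of 0.048 to 0.225 over all 18.

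The wider pathways of the 8 transcripts were read from the same fit, in which 10.1% of all tested genes were called. Of 39 genes between receptor and phosphatase in cAMP signalling, 14 had a log2 fold change above 0, 1 was called higher and 4 were called lower, with a median of -0.04. *Ppp1r1a*, an inhibitor of protein phosphatase 1 related to *Ppp1r1b*, was higher (46.6 ± 1.39 FPKM, SD, n = 4, against 38.6 ± 2.27 FPKM, SD, n = 3). The A1 adenosine receptor *Adora1*, the RGS-binding protein *Rgs7bp*, the calcineurin subunit *Ppp3r1* and the cAMP-responsive factor *Creb1* were lower, by 0.21, 0.26, 0.24 and 0.33 on the log2 scale. Of 18 alternatives, 3 lost the call of *Ppp1r1a*, 12 that of *Adora1*, 7 that of *Rgs7bp*, 12 that of *Ppp3r1* and 9 that of *Creb1*. The largest differences in the list were those of *Drd1* and *Gng7*, which were not called (log2 fold changes 0.61 and 0.51).

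Among 12 genes of peptide processing and peptide receptors, 10 were tested and 3 were called, against 10.1% of all tested genes. *Pdyn* and *Oprk1*, the dynorphin receptor, were called higher, the latter at 3.25 ± 0.530 FPKM (SD, n = 4) among CrT-/y animals and 2.09 ± 0.351 FPKM (SD, n = 3) among CrT+/y animals. *Oprd1*, a receptor of the enkephalins, was called lower, at 5.47 ± 0.407 FPKM (SD, n = 4) against 6.73 ± 0.335 FPKM (SD, n = 3). The call of *Oprk1* was lost in 7 of 17 alternatives and that of *Oprd1* in 11 of 18. Of 17 genes of retinoic acid signalling, 14 were tested. *Rxrg*, the partner receptor of *Rarb* in the striatum, had the largest difference of that list (log2 fold change 0.82, limma adjusted p = 0.398). It spanned 1.08 to 8.33 FPKM in CrT+/y and 3.60 to 8.41 FPKM in CrT-/y animals.

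Markers of other cells and regions were read beside the striatal transcripts, and the part of each in the result was not tested. For comparison with the calls below, 10.1% of all tested genes were called in either direction. Cortical excitatory markers ran against the 8 transcripts, with r under 0 in 9 of 9 genes (median -0.77, n = 7 animals), and *Neurod6* was called lower in CrT-/y (log2 fold change -0.42), a call lost in 9 of 18 alternatives. Their highest sum, 944 FPKM, was in CrT+/y replicate 1 and their lowest, 776 FPKM, in CrT+/y replicate 2. *Slc17a7* made up most of both, at 670 and 542 FPKM. Of 8 interneuron markers, 4 had a log2 fold change above 0, with a median of -0.01. *Gad1* was called higher (0.24), a call lost in 10 of 18 alternatives, and the largest differences were those of *Pvalb* (-0.54) and *Lamp5* (-0.30), which were not called. Besides *Vip* (0.04), those above 0 were *Gad1*, *Gad2* (0.12) and *Slc32a1* (0.17). These last 3 are also expressed in medium spiny neurons and do not mark cortical interneurons alone. The 4 cholinergic markers, which mark striatal interneurons and basal forebrain cells, were low, at a sum of 0.77 to 5.17 FPKM in CrT+/y and 3.02 to 4.78 FPKM in CrT-/y, with *Lhx8* at 0 FPKM in CrT+/y replicate 1. The only one tested, *Slc5a7*, the choline transporter, had an r of 0.90 with the 8 (log2 fold change 0.97, limma adjusted p = 0.206).

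Of 5 olfactory bulb markers, 3 were tested and *Cdhr1* was called higher (10.1% of all tested genes were called in either direction), a call lost in 11 of 17 alternatives. Of these 3 genes, 2 had an r above 0.7 with the 8 transcripts (median 0.75, n = 7 animals). The sum of the markers was 3.71 to 7.08 FPKM in CrT+/y and 6.70 to 18.7 FPKM in CrT-/y animals. The 6 choroid plexus markers summed to 6.53, 404 and 20.9 FPKM in CrT+/y replicates 1, 2 and 3 and to 3.89 to 53.1 FPKM in CrT-/y animals, none of them called by limma, and 1 of the 4 tested had an r above 0.7 (median 0.58). The high value of CrT+/y replicate 2 was in the animal whose *Drd2* and *Penk* were highest. Of the 4 thalamic, 4 hippocampal and 6 oligodendrocyte markers tested, none was called. With untested markers included, the 6 thalamic, 5 hippocampal and 6 oligodendrocyte markers summed to 15.6 to 23.6, 45.0 to 58.6 and 854 to 1557 FPKM over the 7 animals. Most of the hippocampal sum was *Wfs1*, at 39.5 to 49.2 FPKM. It hides the wider relative range of *C1ql2*, from 0.82 FPKM in CrT-/y replicate 3 to 4.07 FPKM in CrT-/y replicate 2. None of the 14 genes tested had an r above 0.7 with the 8 transcripts. Their median r was 0.50 for thalamus, 0.23 for hippocampus and 0.53 for oligodendrocytes, against -0.11 over all tested genes outside the 8.

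Some of the 8 genes share sequence with a neighbour on the opposite strand in GENCODE M21. *Ppp1r1b* overlaps *1700003D09Rik* over 7079 bp of gene length (0.587 to 1.53 FPKM), and *Rarb* overlaps *Top2b* over 4624 bp (27.9 to 36.3 FPKM) and *Gm48162* over 4859 bp. *Penk* overlaps *A830012C17Rik* over 499 bp, and *Pde10a* overlaps *Gm15425*, *Gm17087* and *Gm15426*. Whether strand was used in counting is not stated in the sources used here, and without it reads of overlapping exons cannot be told apart. *Adora2a*, *Drd2*, *Rgs9* and *Tac1* overlap no other annotated gene there.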

How the data were processed

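Cortical RNA of 7 male mice (4 CrT-/y, 3 CrT+/y) was sequenced, 1 library per animal, and groups were taken from the labels. The authors aligned reads to mm10 with the Tuxedo protocol (the labels name Bowtie and Cuffnorm), kept unique alignments with at most 2 mismatches and deposited FPKM per gene and animal, which are scaled by the authors to exon length and mapped reads and are not counts.

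Here 0.1 was added to FPKM, genes whose mean reached 1 FPKM were put on the log2 scale and fitted on genotype with limma 3.58.1 (R 4.3.3; trend on expression, Benjamini-Hochberg over all tested genes), and an adjusted p-value under 0.1 was a call. The fit was tested on simulated data. The p-values set the difference between genotypes against the spread of these animals within genotypes, moderated over all tested genes. Likeness is Pearson's r over the 7 animals between a gene's log2 values and the mean standardized log2 values of the 8 transcripts. Summaries used Python 3.11.15, pandas 2.3.3 and numpy 2.4.6. Positions are from GENCODE M21 (GRCm38), and promoters from RefSeq.

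The 8 transcripts and all gene lists were chosen with earlier results of these data known. Named genes are the 8, *Slc6a8*, in each list the called genes and the 3 with the largest absolute log2 fold change among those tested (not all are described, and some results are not reported here), and the 10 most alike. *Sp9*, *Isl1*, *Ptpn5*, *Ebf1* and *Lhx8* were named after their values were seen. The alternatives were other pseudocounts, filters, scalings and moderations, array weights, a replicate block, each animal left out, and the level of other striatal genes as a covariate.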

Additional observations from a re-analysis of the deposited data

Results flagged for a closer look

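None of the 8 striatal transcripts had 1 animal far from the other CrT-/y animals. Among 50 genes named by the rule and reported here, 3 did, where chance gives about 1 in 20. The gap to the nearest animal, as a share of the range of the 4 CrT-/y animals, was above Dixon's critical value for each. It was 0.9035 for *Cdhr1*, an olfactory bulb marker, with 9.14 FPKM in CrT-/y replicate 1 and 3.44 FPKM in the next. It was 0.8809 for *Wfs1*, with 49.2 FPKM in CrT-/y replicate 3 against 44.0 FPKM, and 0.8769 for *Creb1*, with 10.6 FPKM in CrT-/y replicate 2 against 11.0 FPKM.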

How the results depend on the processing

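Across 18 alternatives, the 8 transcripts gave 144 log2 fold changes. Of these, 138 kept their direction and their side of the threshold, 3 passed the threshold and 3 changed sign. With the level of other striatal genes as a covariate, *Pde10a* was at -0.015 and *Drd2* at -0.225, 1 of the 8 was called, 0 other striatal genes were called, and *Ralgps2* (-0.017), *Lrrc10b* (-0.0064) and *Syndig1l* (-0.0041) changed sign. Leaving out each animal in turn gave -0.364 to 1.80 for *Drd2*, -0.014 to 0.164 for *Ralgps2*, -0.093 to 1.49 for *Lrrc10b* and -0.061 to 1.496 for *Syndig1l*, and it gave 0 to 2 of the 8 and 0 to 5 other striatal genes called, with the maximum of both counts without CrT+/y replicate 2. Over all genes, 1318 calls became 353 without a filter on low values (0 other striatal genes called), 555 with the covariate, and 64 (without CrT-/y replicate 1) to 3733 (without CrT+/y replicate 3) when an animal was left out. The replicate block gave 576 calls over all genes, 0 of the 8 and 1 other striatal gene called. Same-numbered animals did not deviate together (r = -0.078, 0.046 and -0.051), and CrT-/y replicate 0 has no partner, so no pairing was assumed. The labels do not give the litters, and so few values cannot exclude a shared litter or batch. A mean of at least 5 FPKM gave no value for genes below it. The cause of these changes was not tested. With 3 and 4 animals and the spread of these transcripts, the interval of *Adora2a* allows from a lower level in CrT-/y to one several times higher.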
